A study of Mus musculus with 105 samples.

Results

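Igkc, Ighm, Cd79a, Cd79b, Ms4a1, Cd74, H2-Aa, H2-Ab1 and H2-Eb1 are genes of B cells and of antigen presentation, and their reads gauge how much B cell RNA stayed in purified CD4+ T cell cultures and how stable it was. The 9 genes were chosen by name, and 8 of them matched a row by Ensembl ID among the 22322 mouse genes of the count table. Ighm matched none and was not analysed here. Of the 8 genes, 7 had enough counts to be tested, and Ms4a1 did not. Levels are exon counts scaled to the effective size of the library (CPM), its exon counts times the TMM factor that aligns the typical mRNA between libraries. Changes are log2 differences between group means ± SE with 3 libraries in each group, relative to the typical mRNA unless they are given per ERCC spike-in, a synthetic RNA added to the sample. A gene was called at an adjusted p under 0.05 in edgeR, with the adjustment made over the 10741 genes tested. The labels call the replicates biological, and none says that they came from separate animals. The p values therefore measure the spread between these libraries, which may be technical.

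The cells were CD4+ T cells of female C57BL/6J mice aged 6 weeks, isolated from spleen and lymph nodes by removing other cell types with a kit, so the T cells themselves carried no label. The purity of the cells, and whether mice were pooled, are not given in the sources used here. Activated cells had met beads carrying CD3 and CD28 antibodies, and resting cells had not. The 21 activated groups were untreated, triptolide and DRB cultures at 0, 1 and 3 h, cycloheximide and harringtonine cultures at 1 and 3 h, and each of these translation inhibitors with triptolide or with DRB at 1 and 3 h. The 14 resting groups were the same without DRB. Triptolide (25 µM) and DRB (65 µM) stop transcription by RNA polymerase II, and cycloheximide (100 µg/ml) and harringtonine (2 µg/ml) stop translation. Each group had replicates 2, 3 and 4, which the labels call biological, and no label ties a number to a mouse. Where the cultures of a number were not separate, p values measure only the spread between these libraries.

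B cells carry a receptor made of an immunoglobulin, whose light chain constant part Igkc encodes in most mouse B cells, and of the signalling pair CD79A and CD79B. Plasma cells, the antibody-secreting descendants of B cells, devote a very large share of their mRNA to immunoglobulin and switch most B cell and class II genes off. MHC class II molecules are pairs of an α and a β chain that show peptides to CD4+ T cells. They are made by B cells, dendritic cells and macrophages under the coactivator CIITA, while mouse T cells make little or none.

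The libraries held 6300 to 6479221 exon counts with a median of 2135827. Replicate 3 of resting cells after 1 h of triptolide was the shallowest, followed by replicate 3 of untreated activated cells at 0 h (141028). All others held at least 551975. The CD4+ T cell label was met by its defining genes: Cd4 was at 215 to 312 CPM and Cd3e at 72.0 to 148 CPM when the libraries of each cell state and replicate number were summed, and Cd8a at no more than 1.46 CPM. Such a sum is called a replicate series below, and there are 6. The 8 genes of a list for CD8 T and NK cells, Cd8a among them, together stood at 17.96 to 29.27 CPM in the series. Most of that level lay in genes of the list other than Cd8a.

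Igkc (chr6:70726435-70726966, plus strand, mm10, a constant gene of a single exon) was the most abundant of the genes by far. It had 43025 exon counts in all and at least 1 count in each library. Cd74, the invariant chain that guides class II molecules to the peptide-loading compartment, had 7131. The class II chains followed with 1431 counts for H2-Aa (the α chain of I-A), 906 for H2-Ab1 (the β chain of I-A) and 795 for H2-Eb1 (the β chain of I-E). The B cell receptor and surface genes were lowest, with 578 counts for Cd79b, 304 for Cd79a and 188 for Ms4a1, which encodes CD20. Per kilobase of exon, resting replicate 2 held 1172 CPM of Igkc, 26.8 of Cd74, 2.58 of Cd79b and 0.167 of Ms4a1. Ms4a1 was without a count in 17 of the 21 libraries of activated replicate 3.

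The 3 class II chain genes lie together on chromosome 17: H2-Ab1 at chr17:34257689-34269419 (plus strand), H2-Aa at chr17:34282744-34287823 (minus strand) and H2-Eb1 at chr17:34305867-34316674 (plus strand), all mm10. H2-Ob, the β chain of a class II-like protein that restrains peptide loading, starts in the same stretch. Promoters of this family share a box read by the factor NF-Y, whose core is GATTGG or, on the other strand, CCAATC. The 250 bases before the gene start (RefSeq, GRCm38.p6) are shown for H2-Aa, H2-Eb1 and H2-Ob, and H2-Ab1 had no entry. The chain genes ranked the cultures alike, and H2-Ob, with the same box, stood at 16.03 to 29.1 CPM in every series. Whether the box bears on these levels was not tested. The core is in capitals.
H2-Aa, chr17:34287824-34288073, minus strand: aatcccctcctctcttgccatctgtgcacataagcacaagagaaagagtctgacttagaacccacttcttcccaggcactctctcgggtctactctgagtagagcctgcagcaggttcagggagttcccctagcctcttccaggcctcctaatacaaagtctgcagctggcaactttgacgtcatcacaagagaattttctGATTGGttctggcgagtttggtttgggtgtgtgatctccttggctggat
H2-Eb1, chr17:34305617-34305866, plus strand: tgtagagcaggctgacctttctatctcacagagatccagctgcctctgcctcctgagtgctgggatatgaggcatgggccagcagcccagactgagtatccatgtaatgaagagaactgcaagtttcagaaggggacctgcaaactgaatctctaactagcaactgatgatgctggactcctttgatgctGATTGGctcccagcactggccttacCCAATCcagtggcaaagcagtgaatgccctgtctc
H2-Ob, chr17:34238655-34238904, plus strand: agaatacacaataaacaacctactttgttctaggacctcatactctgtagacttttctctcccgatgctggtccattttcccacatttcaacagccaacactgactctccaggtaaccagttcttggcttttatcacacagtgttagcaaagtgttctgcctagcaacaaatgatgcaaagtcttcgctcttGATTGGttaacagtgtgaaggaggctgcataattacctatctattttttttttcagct
The core begins 49 bases before the start in H2-Aa, 58 in H2-Ob, and 60 and 35 in H2-Eb1, where the second match is on the other strand. It was present on either strand in 4783 of 32851 promoter windows of this length (14.56%). The octamer ATGCAAAT, on either strand, was in 526 windows (1.601%) and in none of the windows that matched these genes. Of the 9 genes, 3 had an entry in the promoter table. The third, Cd79a, held neither motif.

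The replicate series ranked these genes in at least 2 different orders. Igkc was highest in resting replicate 2 at 624 CPM, followed by resting replicate 3 at 246, activated replicate 4 at 172, resting replicate 4 at 91.5, activated replicate 2 at 90.5 and activated replicate 3 at 37.5 CPM. The highest series was 16.6 times the lowest. Within activated cells replicate 4 was highest and replicate 3 lowest in all 21 conditions, and within resting cells replicate 2 was highest and replicate 4 lowest in all 14. So the ranks of the libraries within a condition were the same whichever inhibitor had been added.

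The class II chains had another order. H2-Ab1 was highest in activated replicate 2 at 9.32 CPM, and the other 5 series stood between 0.788 and 3.47 CPM. H2-Aa was at 11.9 CPM in activated replicate 2 and at 1.00 to 5.89 CPM elsewhere, and H2-Eb1 at 7.82 CPM against 0.546 to 3.53. Activated replicate 2 was the highest of the activated replicates for all 3 chains in 21 of 21 conditions. In resting cells replicate 3 was the lowest in 14 of 14 conditions for H2-Ab1 and H2-Eb1 and in 13 for H2-Aa. There were 0.983 to 1.44 counts of H2-Ab1 for each count of H2-Eb1 in the 6 series, and 1.27 to 2.76 counts of H2-Aa for each count of H2-Ab1, the other chain of I-A. For Igkc and Cd79b the same measure ran from 22.3 in activated replicate 2 to 168.5 in resting replicate 2.

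**Figure D1:**
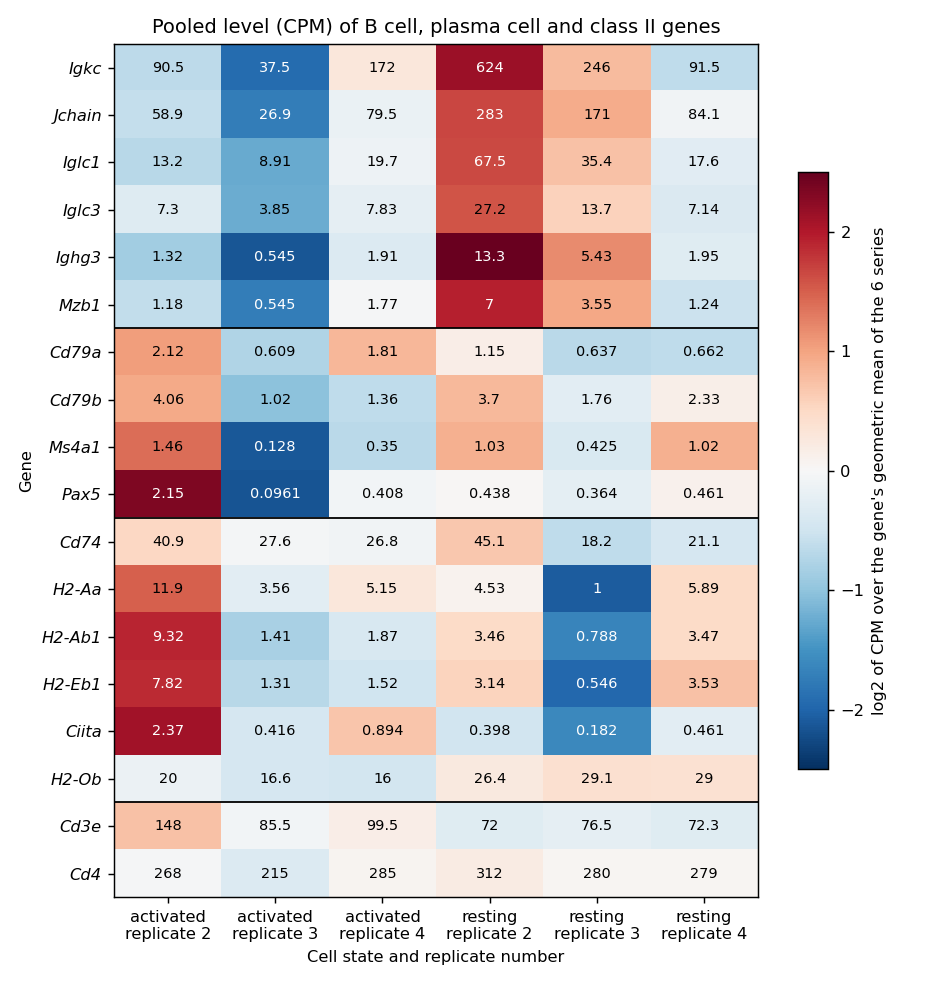
Each cell gives the pooled level (CPM) of a gene (rows) in a replicate series (columns, the cell state and replicate number), and its colour the log2 of that level over the gene's geometric mean of the 6 series. The immunoglobulin and plasma cell genes at the top are highest in resting replicate 2 (Igkc 624 CPM), and the class II chains, Ciita and Pax5 in activated replicate 2 (H2-Ab1 9.32 CPM), while Cd4 and Cd3e vary less.

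Other genes of B and plasma cells fell on either side of this divide. Jchain, which joins secreted immunoglobulin chains, was at 283, 171 and 84.1 CPM in resting replicates 2, 3 and 4 and at 58.9, 26.9 and 79.5 in the activated ones. Mzb1, a chaperone of immunoglobulin secretion, was at 7.0, 3.55 and 1.24 CPM against 1.18, 0.545 and 1.77. Jchain and Mzb1 thus had the rank order of Igkc within each cell state. Ciita, the master regulator of class II genes, was at 2.37 CPM in activated replicate 2 and at 0.416 CPM in activated replicate 3. Among genes with at least 50 counts, 6 of 7 plasma cell genes were highest in resting replicate 2. Of 20 other B cell genes, 11 were highest in activated replicate 2 and 8 in resting replicate 2. All 5 red cell genes were also highest in activated replicate 2, with a summed 14.2 CPM against 1.79 to 4.97 CPM in the other series. The labels describe a density separation to remove red cells, and the part of such carry-over in these levels was not tested.

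Cd74 followed neither order closely. Its level was 40.9, 27.6 and 26.8 CPM in activated replicates 2, 3 and 4, against 45.1, 18.2 and 21.1 CPM in resting cells, so its highest series was 2.47 times its lowest. For each count of H2-Aa there were 3.43 to 18.2 counts of Cd74. Cd79a and Cd79b were at 0.609 to 2.12 and 1.02 to 4.06 CPM, both highest in activated replicate 2 and lowest in activated replicate 3.

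Reads of many different immunoglobulin variable segments accompanied those of Igkc. The table held 177 segments, and 131 to 155 of them had a count in each series. Iglv1, a λ light chain segment, was first in every series with 14.1 to 21.2% of the segment counts, and no other segment passed 7.40%. The summed segments were at 546, 267.5 and 127 CPM in resting replicates 2, 3 and 4 and at 134, 54.2 and 151 CPM in the activated ones, the order of Igkc within each state. Segments resemble each other, and how reads that align to several places were counted is not given in the sources used here, so shares of single segments are uncertain.

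Among genes of other antigen-presenting cells some defining ones, picked after their values were seen, were near 0. Clec9a, Cd209a and Siglech of dendritic cells stood at 0.0972 CPM or less in each series, C1qa of macrophages had no count, and Csf1r and Lyz2 reached at most 0.428 and 0.676 CPM. The 15 macrophage, monocyte and neutrophil genes summed to 17.97 to 28.7 CPM in the 6 series, so most of that sum lay in other genes of the list, among them Ly6c2 at 8.52 to 16.9 CPM and Itgam at 2.39 to 5.03 CPM. The 14 dendritic cell genes summed to 583.5 to 1217 CPM, and most of that was Ccr7, which naive T cells carry, and Irf8. Irf8 was at 226.5 to 413.5 CPM in activated and 7.34 to 12.7 CPM in resting series. In bulk RNA, fewer cells of a type and less RNA in each cell cannot be told apart.

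The first comparison asks whether activated cultures held less of this RNA than resting ones. At 0 h Igkc was at 729, 176 and 89.2 CPM in resting replicates 2, 3 and 4 and at 81.0, 6.12 and 143 CPM in the activated ones, the 6.12 being a single count in the shallow library. The groups overlapped, and the change of −1.83 ± 1.00 was not called (adjusted p = 0.1755). At 0 h of triptolide Igkc was at 769, 343 and 103 CPM in resting and 80.7, 48.3 and 183 CPM in activated cells (−1.97 ± 0.97, adjusted p = 0.12). At 3 h untreated it was at 538, 256.5 and 84.1 CPM in resting cells, against 68.7 and 18.6 CPM in activated replicates 2 and 3, with activated replicate 4 again the highest of its state (−2.16 ± 0.99, adjusted p = 0.0578). In each of these comparisons resting replicates 2 and 3 lay above all 3 activated libraries, and resting replicate 4 lay among them. The size rests on single replicates: without replicate 2 the 3 changes were −0.36, −0.97 and −1.42, and without replicate 4 they were −2.90, −3.14 and −3.12 and called.

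None of the 7 genes tested was called by edgeR at 0 h untreated, where 26.7% of all genes were. None had an unadjusted p under 0.05 either, and DESeq2 called 0 with 1 gene, Igkc, under that limit. At 0 h of triptolide edgeR and DESeq2 each called 0 of 7, against 28.9% of all genes, with Igkc alone under an unadjusted 0.05 in both. At 3 h untreated edgeR called 0 of 7 against 53.8% of all genes, with Igkc again alone under an unadjusted 0.05, and DESeq2 called Igkc. The class II chains leaned the other way from Igkc without passing the test. At 0 h the changes were 0.99 ± 0.89 for H2-Aa, 1.14 ± 1.08 for H2-Ab1 and 1.38 ± 1.19 for H2-Eb1. H2-Ab1 was at 9.88, 0.00 and 2.31 CPM in activated and 2.67, 0.00 and 5.33 CPM in resting replicates 2, 3 and 4, so the lean came from activated replicate 2. Cd74 was at 36.5, 36.7 and 22.5 CPM in activated against 43.8, 19.5 and 28.4 CPM in resting cells (0.02 ± 0.47), and Cd79b and Cd79a were at −0.22 ± 0.82 and −0.22 ± 0.93. These are exon levels. Cd74 introns, pooled by group, held 46 counts in activated and 13 in resting cells at 0 h untreated, or 7.87 and 1.90 CPM. They were at 6.18 and 1.43 CPM at 3 h untreated and at 1.28 and 1.52 CPM at 0 h of triptolide. The intron difference was not tested.

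Jchain, Iglc1 and Iglv1 were called where Igkc was not. Jchain was lower in activated cells by −2.31 ± 0.69 at 0 h untreated (adjusted p = 0.00839), −2.22 ± 0.65 at 0 h of triptolide and −2.11 ± 0.66 at 3 h untreated (adjusted p = 0.00663 and 0.00498). Iglc1, a λ light chain constant gene, was lower by −2.13 ± 0.72 at 0 h (adjusted p = 0.0211), and Iglv1 by −1.76 ± 0.64 (adjusted p = 0.0308). Of 6 plasma cell genes tested, 2 fell at 0 h and 4 were not called, with a median of −2.06 beside −0.02 over all genes. The falls were Jchain and Xbp1, a secretory transcription factor that T cells also express, at −1.81 ± 0.35. Of 8 other B cell genes tested, 1 rose and 2 fell. Pou2af1, a B cell coactivator also induced in activated T cells, rose by 1.82 ± 0.45 (adjusted p = 0.00106), and the falls were Iglc1 and Iglc3. Of 56 variable segments tested, 0 rose, 3 fell and 53 were not called, with a median of −1.51. Over all genes 26.7% were called in this comparison, a larger share than among the segments. The counts of genes called in these lists are therefore no result about them.

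Of 14 other genes of the class II pathway tested, 2 rose and 5 fell at 0 h, where 26.7% of all genes were called. Their median was −0.70. Rfx5, a factor that binds class II promoters, rose by 0.99 ± 0.21 (adjusted p = 0.000133), from 28.2 ± 0.737 CPM in resting to 54.3 ± 4.69 CPM in activated cells (SD, n = 3). Ctss, the protease that trims the invariant chain, fell by 0.88 ± 0.23 (adjusted p = 0.00197). Ciita itself had 220 counts in all libraries. The list is mostly of genes that T cells express as well: it summed to 397.5 to 428.7 CPM in activated and 461.8 to 511.8 CPM in resting cells, far above the chain genes.

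**Figure D2:**
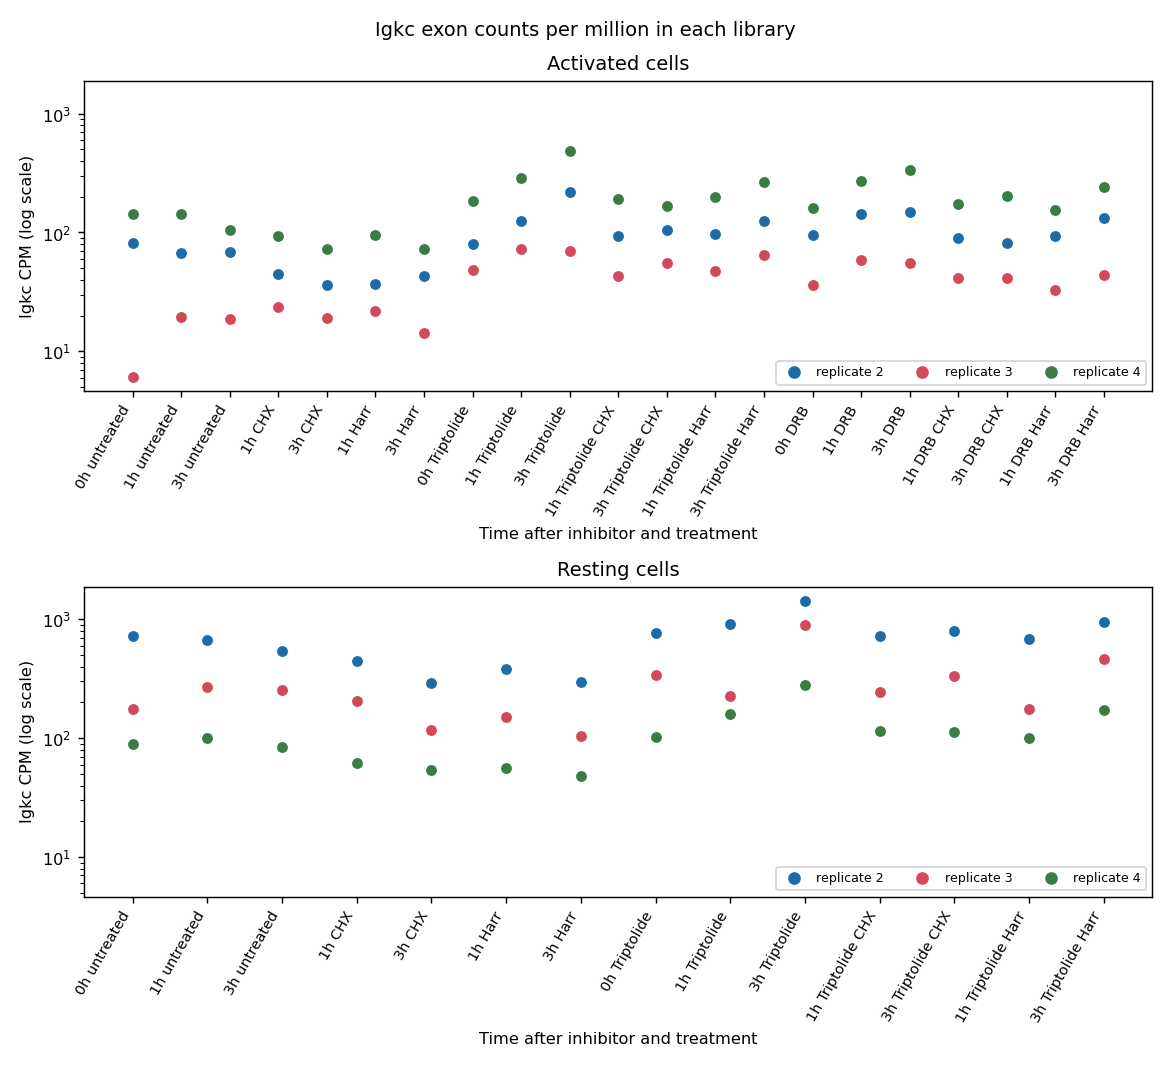
Each point is the Igkc level (CPM, log scale) of a library, by time and treatment on the horizontal axis, with activated cells above, resting cells below and colours for the replicate number. The replicates keep their ranks in every condition (4, 2, 3 in activated and 2, 3, 4 in resting cells), and with triptolide the highest libraries stand at 486 CPM in activated replicate 4 and 1431 CPM in resting replicate 2.

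In the fit of group means alone, none of the 7 tested genes was called over 3 h without an inhibitor. In activated cells Igkc was at −0.52 ± 1.00 and Cd74 at 0.06 ± 0.47, and in resting cells at −0.19 ± 0.93 and −0.71 ± 0.46. edgeR called 0 of 7 genes in activated cells (13.6% of all genes were called) and 0 of 7 in resting cells (6.39%), none had an unadjusted p under 0.05, and DESeq2 gave the same counts. The largest estimate was for Cd79a in activated cells, at 6, 0 and 1 counts at 0 h and 0, 0 and 1 at 3 h (−2.57 ± 1.31, adjusted p = 0.203). A fit that also took up the differences between the replicates of a state called none of the genes in activated cells. Cd79a and Igkc were under an unadjusted 0.05 in it. In resting cells, where the numbers were not taken to pair the libraries, it called Cd74 lower. The shares of all genes called in that fit are not reported here.

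When transcription was stopped, Igkc stood at a higher level after 3 h in every replicate of all 3 arms, relative to the mRNA that was left. In activated cells its mean level was 104 ± 70.3 CPM at 0 h of triptolide, 162 ± 112 at 1 h and 258 ± 211 at 3 h (SD, n = 3). By replicate 2, 3 and 4 it went from 80.7, 48.3 and 183 CPM to 219, 69.6 and 486 CPM, up in 3 of 3, while the groups overlapped. The change of 1.35 ± 0.97 was not called (adjusted p = 0.253). Under DRB it went from 95.9, 35.8 and 161 to 149.9, 55.7 and 338 CPM (0.88 ± 0.96, adjusted p = 0.491), also up in each number. In resting cells with triptolide it went from 769, 343 and 103 to 1431, 901 and 278 CPM (1.1 ± 0.93, adjusted p = 0.319).

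In the DRB and the resting triptolide comparison the libraries of a number deviated together, and a fit that also took up the differences between the replicates of a cell state (a replicate block) called Igkc. The blocked changes were 0.82 ± 0.17 under DRB (adjusted p = 2.52e-05) and 1.25 ± 0.15 in resting cells with triptolide (adjusted p = 4.94e-12). All genes had medians of −0.02 and −0.05 there. That fit called 3 of 7 genes under DRB, where 50.9% of all genes were called, and 2 of 7 in resting cells (65.2%). In activated triptolide the deviations had an r of 0.182, 0.085 and 0.268 in replicates 2, 3 and 4. Replicate 3 fell short of the limit of 0.1, so the numbers were not taken to pair there. The blocked fit called Igkc in that arm too, so the arms differ here by this limit.

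Per ERCC spike-in the sign was the other way. Igkc changed by −0.70, −0.28 and −0.45 in replicates 2, 3 and 4 of activated cells with triptolide, by −0.44, −1.34 and −0.61 with DRB, and by −0.66, −0.32 and −0.42 in resting cells with triptolide. It was down in 9 of 9 pairs of libraries. With the block the spike-in values were −0.72 ± 0.23 for DRB (adjusted p = 0.00307) and −0.46 ± 0.21 for resting cells (adjusted p = 0.043), where the medians of all genes were −1.55 and −1.77. Without the block they were −0.47 ± 1.04 for activated triptolide, −0.64 ± 1.04 for DRB and −0.56 ± 1.02 for resting triptolide, none of them called. The blocked spike-in fit called 3 of 7 genes under DRB and 3 of 7 in resting triptolide, where 85.1% and 82.4% of all genes were called. On both scales Igkc lay above the median of all genes.

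A difference in the Igkc change between cell states was not detectable. The triptolide change in activated minus that in resting cells was 0.25 ± 1.33 (adjusted p = 0.96). None of the 7 genes was called for this difference by edgeR or DESeq2, none had an unadjusted p under 0.05 in either, and 6.47% of all genes were called by edgeR. This SE is from the fit of group means alone, takes in the spread between replicate series and leaves room for large differences in either direction. Over 14 alternative fits the Igkc difference ran from −0.07 to 0.44, and 0 of them called it.

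**Figure D3:**
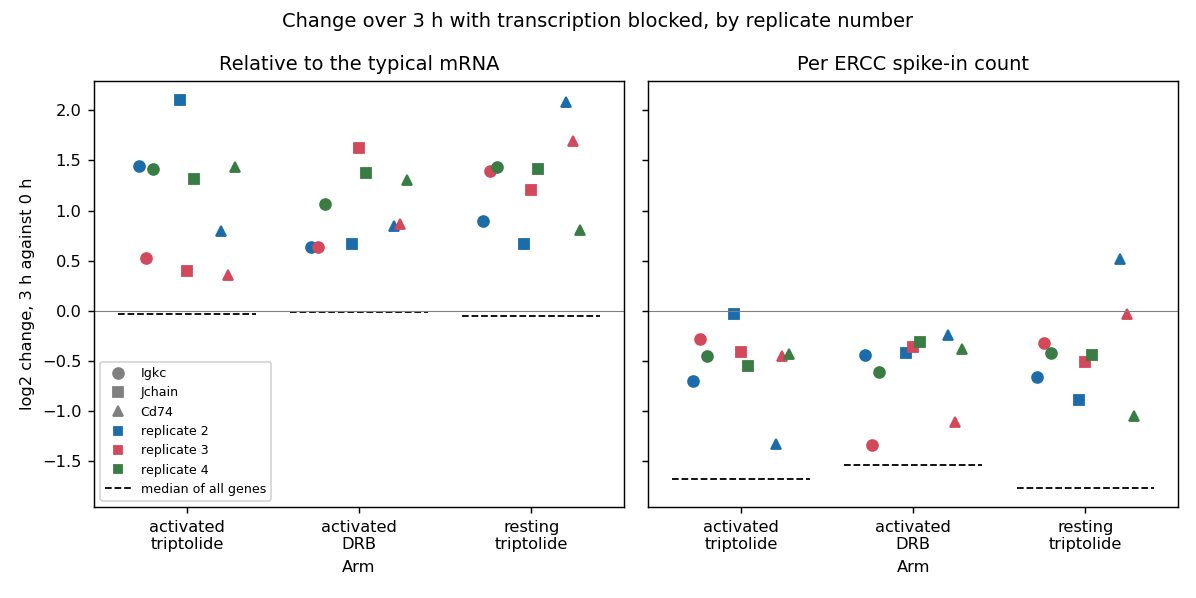
Points are log2 changes over 3 h for Igkc, Jchain and Cd74 (marker shape) in each replicate number (colour), relative to the typical mRNA on the left and per ERCC spike-in count on the right, in the 3 arms where transcription was blocked. Dashed lines are medians over all genes. Every point on the left is above 0 and its line, and on the right every Igkc and Jchain point lies below 0 and above the dashed line.

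Jchain and most variable segments were not called in these arms in the fit without the block, and neither was Igkc. Their values with the block are not reported here, so they cannot be set against the blocked calls of Igkc. Jchain changed by 1.50 ± 0.66 in activated cells with triptolide (adjusted p = 0.0532), 1.14 ± 0.65 with DRB and 0.93 ± 0.61 in resting cells, none of them called. Iglv1 rose by 1.49 ± 0.62 in activated and 1.23 ± 0.54 in resting cells with triptolide (adjusted p = 0.0394 and 0.0482). Of 56 segments tested, 8 rose and 0 fell in activated cells (median 1.52), 2 rose and 0 fell with DRB (median 0.93), and 9 rose and 0 fell in resting cells (median 1.06). Over all genes 47.6%, 39.8% and 56.8% were called in these comparisons, larger shares than among the segments. Xbp1, which T cells express, was the exception among the plasma cell genes and fell, with changes of −2.29 ± 0.40 in activated and −3.31 ± 0.38 in resting cells with triptolide.

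Cd74 rose against the typical mRNA in resting cells. It went from 37.6, 19.3 and 28.1 CPM at 0 h of triptolide to 159, 62.1 and 49.1 CPM at 3 h, without overlap (1.62 ± 0.44, adjusted p = 0.00129), and was the only gene of the 7 called, where 56.8% of all genes were. The groups also did not overlap under DRB, where it went from 38.8, 24.9 and 19.1 to 69.7, 45.6 and 47.1 CPM (0.97 ± 0.44, adjusted p = 0.0728). With the replicate block the DRB change was 0.99 ± 0.23 and called (adjusted p = 0.000167). In activated cells with triptolide it went from 35.2, 21.7 and 23.9 to 61.5, 27.8 and 64.4 CPM (0.99 ± 0.46, adjusted p = 0.0661). Per spike-in Cd74 stood at 0.01 ± 0.57 in resting cells with triptolide, −0.50 ± 0.57 with DRB and −0.80 ± 0.59 in activated cells with triptolide. None of these was called, and the call in resting cells therefore holds relative to the typical mRNA only. With the block and per spike-in Cd74 was called lower in activated cells with triptolide, where the median of all genes was −1.73. The numbers were not taken to pair the libraries there. In the DRB and resting triptolide arms that fit did not call Cd74.

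The class II chains gave no call in these arms without the block. In activated cells with triptolide H2-Aa changed by 0.96 ± 0.82, H2-Ab1 by 0.47 ± 1.04 and H2-Eb1 by 1.37 ± 1.15. H2-Aa went from 11.9, 3.38 and 4.53 to 15.5, 12.2 and 10.5 CPM, or from 22, 7 and 7 to 27, 7 and 13 counts. In resting cells H2-Eb1 went from 13, 2 and 13 counts to 2, 0 and 5, and its change of −0.48 ± 1.35 lay below that of H2-Ab1, at 0.99 ± 1.15. With the block and per spike-in H2-Aa and H2-Eb1 fell in resting cells, by 1.42 ± 0.46 and 2.21 ± 0.63 (adjusted p = 0.00333 and 0.00103), and H2-Ab1 was at −0.66 ± 0.55. H2-Eb1 also fell by 1.63 ± 0.52 under DRB on that scale (adjusted p = 0.00303). In activated cells with triptolide H2-Aa (−0.96) and H2-Ab1 (−1.77) were called lower on it and H2-Eb1 (−0.59) was not. The median of all genes was −1.73 there, and the numbers were not taken to pair the libraries. With counts this low the chains cannot be ranked by stability.

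Cd79b was the only gene called in activated cells with triptolide, where 47.6% of all genes were. It had 5, 1 and 1 counts at 0 h and 17, 4 and 6 at 3 h, or 2.71, 0.483 and 0.6465 CPM against 9.76, 6.96 and 4.83 CPM, without overlap (2.48 ± 0.93, adjusted p = 0.0221). The call was lost without replicate 3 (2.04) and without replicate 4 (2.44), with coding-sequence counts (1.88), with library size alone (2.10) and per spike-in (0.77 ± 1.07). Under DRB Cd79b had 19, 2 and 4 counts at 0 h and 3, 0 and 3 at 3 h (−1.07 ± 1.00, adjusted p = 0.412), the opposite sign. Per spike-in that fall was called without the block (−2.46 ± 1.04, adjusted p = 0.027) and with it (−2.35 ± 0.73, adjusted p = 0.00253).

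Cd79a (chr7:24897381-24902197, plus strand, mm10) rose under DRB. Its exon counts were 8, 0 and 4 at 0 h and 14, 3 and 16 at 3 h, or 2.48, 0.00 and 1.53 CPM against 7.69, 3.80 and 12.99 CPM, without overlap. The rise of 2.36 ± 0.68 was the only call among the 7 genes (adjusted p = 0.00374), where 39.8% of all genes were called. It was lost without replicate 4 (1.86) and per spike-in (0.89 ± 0.77). Under triptolide its change was 0.18 ± 0.96 in activated and 1.33 ± 0.94 in resting cells.

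The added Cd79a reads lay in introns as well as exons. Intron counts went from 4, 2 and 1 at 0 h of DRB to 19, 6 and 19 at 3 h, so that the 3 h libraries held 44 intron and 33 exon counts. DRB with harringtonine gave 34 and 30 at 3 h and DRB with cycloheximide 20 and 16, whereas activated triptolide at 3 h held 2 and 6. Over all libraries Cd79a had 217 intron and 304 exon counts, while Cd79b had 55 and 578. The nearest gene upstream on the same strand is Rps19 (chr7:24884371-24889806), a ribosomal protein gene that ends 7575 bases before Cd79a. Rps19 introns went from 13.4, 12.5 and 9.17 to 62.1, 31.6 and 52.8 CPM over the same 3 h, and its exons from 1630, 2482 and 1334 to 4019, 9829 and 4005 CPM. The part of Rps19 in the Cd79a counts was not tested, and the strand of the reads is not given in the sources used here.

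**Figure D4:**
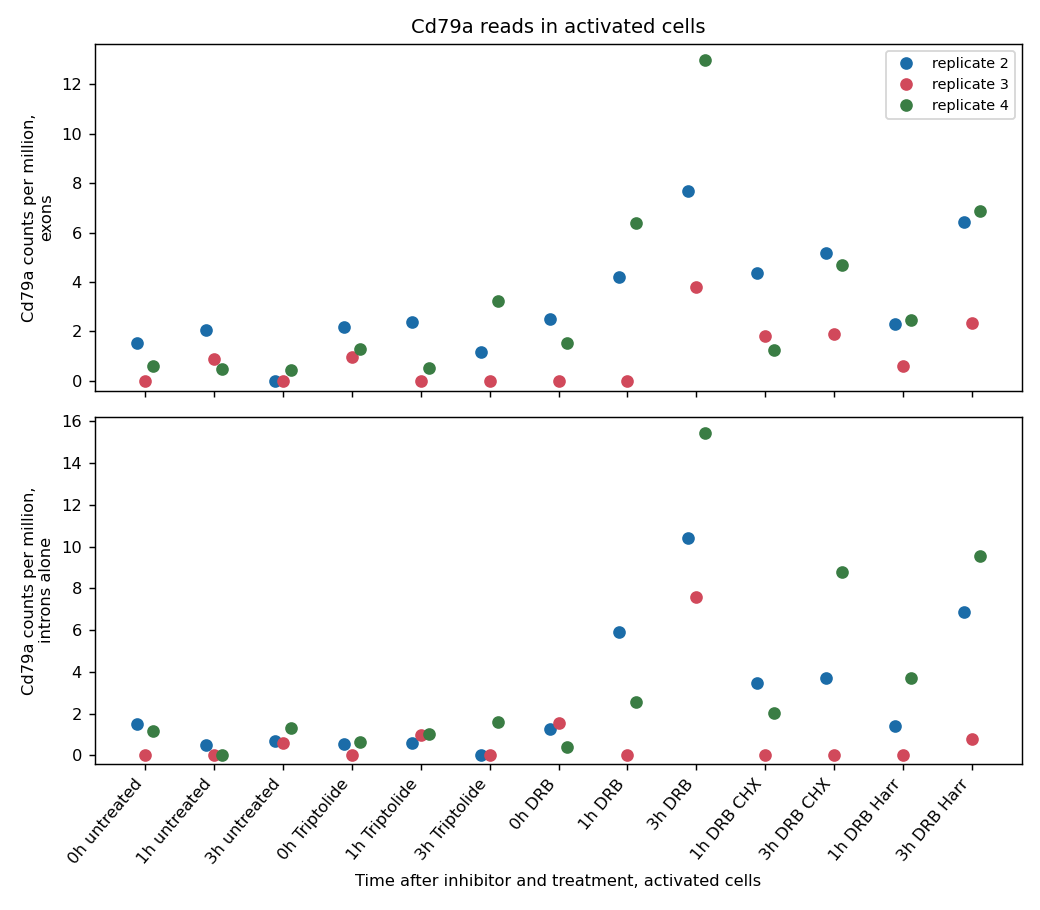
Points are Cd79a CPM (scaled to exon counts) in each activated library, over exons in the upper panel and introns alone in the lower, by time and treatment, with colours for the replicate number. Exon levels reach 3.80 to 12.99 CPM at 3 h of DRB and intron levels 7.59 to 15.4, while triptolide libraries stay at or below 3.22 CPM over exons.

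Stopping translation was compared at 3 h with and without cycloheximide. With triptolide in resting cells Igkc was at 1431, 901 and 278 CPM, and with cycloheximide added at 794, 334 and 112 CPM (−1.06 ± 0.93, adjusted p = 0.389). In activated cells it went from 219, 69.6 and 486 to 106, 55.7 and 167.5 CPM (−1.24 ± 0.96, adjusted p = 0.339), and with DRB from 149.9, 55.7 and 338 to 81.3, 41.3 and 203.5 CPM (−0.68 ± 0.97, adjusted p = 0.669). Without a transcription inhibitor it went from 538, 256.5 and 84.1 to 292, 116 and 54.5 CPM in resting cells (−0.92 ± 0.94) and changed by −0.58 ± 0.99 in activated ones. Igkc was lower with cycloheximide in 14 of these 15 pairs of the same number, all but replicate 3 of activated cells without a transcription inhibitor.

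In these 5 comparisons the libraries of a number deviated together, and the fit with the replicate block called Igkc in each. It called 2 of 7 genes with triptolide in resting cells (46.6% of all genes) and in activated cells (42.1%), 1 with DRB (32.0%), and for cycloheximide alone 2 in resting (43.8%) and 1 in activated cells (42.5%). The Igkc changes were −1.21 ± 0.15 with triptolide in resting cells (adjusted p = 1.07e-10), −1.09 ± 0.17 with triptolide in activated cells (adjusted p = 6.09e-08) and −0.72 ± 0.18 with DRB (adjusted p = 0.000959). For cycloheximide alone they were −0.89 ± 0.15 in resting and −0.58 ± 0.18 in activated cells (adjusted p = 9.52e-07 and 0.0062). Per spike-in with the block Igkc was not called in any of the 5, where 52.2%, 46.0%, 39.2%, 71.2% and 42.2% of all genes were. Its changes were −0.33 ± 0.21, −0.25 ± 0.23, −0.01 ± 0.24, 0.17 ± 0.21 and −0.07 ± 0.24 in the order just given, beside medians of all genes of 0.83, 0.66, 0.60, 1.01 and 0.46. Igkc was thus called relative to the typical mRNA and not per spike-in.

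Cd74 was lower with cycloheximide in resting cells with triptolide, from 159, 62.1 and 49.1 to 58.0, 30.0 and 33.8 CPM (−1.09 ± 0.44, adjusted p = 0.044), the only call among the 7 genes where 35.2% of all genes were called. The groups overlapped, and the call was lost without any 1 of the 3 replicates (−0.76, −1.09 and −1.29), in DESeq2 (−1.07) and with harringtonine in place of cycloheximide (−0.70 ± 0.43). With the block it was −1.05 ± 0.22 (adjusted p = 4.37e-05), and in activated cells with triptolide −0.76 ± 0.23 (adjusted p = 0.00487) where the unblocked change was −0.75 ± 0.44 and not called. Per spike-in Cd74 was called in neither, at −0.22 ± 0.57 in resting and 0.07 ± 0.58 in activated cells without the block and at −0.17 ± 0.26 and 0.08 ± 0.28 with it. H2-Eb1 was called with the block for cycloheximide alone in resting cells (−1.23 ± 0.53, adjusted p = 0.0491) and not without it (−1.14 ± 1.14). In the other 4 cycloheximide comparisons edgeR called 0 of 7 genes, with none at an unadjusted p under 0.05 and the same counts in DESeq2. The shares of all genes called there were 27.4% for activated triptolide, 17.7% for DRB, 30.0% for cycloheximide alone in activated and 26.3% in resting cells. Harringtonine in place of cycloheximide gave Igkc changes of −0.71, −0.80, −0.38, −0.98 and −0.56 in the same order, none of them called.

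Over all 35 groups Igkc was highest in resting cells after 3 h of triptolide (870 ± 577 CPM) and lowest in activated cells after 3 h of cycloheximide (42.8 ± 27.6 CPM, SD, n = 3), and these 2 groups did not overlap. None of the 34 neighbours in that order were apart beyond the spread of their libraries, for Igkc or for any of the other 7 genes. Cd74 was highest in the same group (90.2 ± 60.3 CPM) and lowest in resting cells after 3 h of harringtonine (11.7 ± 4.83 CPM). H2-Aa was highest after 3 h of triptolide in activated cells (12.7 ± 2.56 CPM) and lowest with Cd74 (1.65 ± 1.83 CPM). H2-Ab1 was highest after 3 h of DRB (7.32 ± 7.02 CPM), as Cd79a was (8.16 ± 4.62 CPM). H2-Ab1 was lowest after 3 h of cycloheximide in resting cells (0.856 ± 1.22 CPM), and Cd79a had no count in the resting 1 h harringtonine libraries. Cd79b ranged from 0.39 ± 0.675 CPM with DRB and cycloheximide at 3 h to 7.18 ± 2.47 CPM with triptolide at 3 h. The highest and lowest groups overlapped for Ms4a1 (1.35 ± 1.50 and 0.164 ± 0.284 CPM) and H2-Eb1 (5.67 ± 5.07 and 1.11 ± 0.962 CPM).

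Likeness to other genes was measured as Pearson's r of mean log2 CPM over the 35 groups, a description of groups that share cultures and scaling. The genes most like Igkc were Cd2ap (0.961), Heca (0.957) and the light chain gene Iglc3 (0.953). Those most like Cd74 were Metap1d (0.925), Bst2 (0.882) and Casc4 (0.881), and those most like H2-Aa were Cfl1 (0.92), St13 and Tbl1x (both 0.913). H2-Ab1 was most like Ptk2b (0.88), Cd79b like P2ry1 (0.821) and Cd79a like Zfp651 (0.827). Among the genes themselves H2-Aa and H2-Ab1 had the highest r (0.761), followed by Cd74 and H2-Aa (0.74) and by H2-Aa and H2-Eb1 (0.708). Igkc had an r of 0.015 to 0.275 with the class II genes and Cd74, and of 0.525 with Cd79b. Cd79a and Cd79b had an r of −0.213.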

How the data were processed

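Total RNA of each culture was sequenced with ERCC spike-ins. The authors deposited whole-number read counts per gene over exons, coding sequence and introns. Per the submitters' processing notes, TopHat2 2.0.13, Bowtie 1.1.1.0, HTSeq and the mm10 build were used. Rows that name no gene held 75.84 to 97.25% of a library's reads and were left out. No column of values stayed unmapped (0).

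Group means of all 35 groups were fitted in edgeR 4.0.16 (R 4.3.3, limma 3.58.1) with TMM factors, the filterByExpr filter and the robust quasi-likelihood test, with Benjamini-Hochberg adjustment. Of the genes in the table, 10741 were tested in 14 comparisons. The fit was tested on simulated data: for activated triptolide over 10741 genes it recovered 66 of 100 planted 2-fold and 93 of 100 planted 4-fold changes. The changes were planted only in the more abundant genes, and the simulated means held no differences between replicate series. These rates therefore do not cover genes with few counts, such as Cd79a and Cd79b, or Igkc with its wide spread between series. The alternatives were RLE factors, library size, spike-in scaling, no filter, coding-sequence counts, replicates left out, the 2 shallowest libraries left out, the libraries compared alone, DESeq2 1.42.0, harringtonine for cycloheximide and replicate blocks. Spike-in scaling with a block was added after the data were seen. Figures used Python 3.11.15 and matplotlib 3.10.9.

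No label ties replicate numbers to an animal. Numbers were taken to pair libraries where deviations from the group means correlated above 0.1 in every pair. This held for the DRB, resting triptolide, activated untreated and 5 cycloheximide comparisons. Same-numbered libraries of a cell state had r of −0.18 to 0.533 (median 0.268, 30 pairs), and of different states −0.206 to 0.157 (median −0.018, 18 pairs).

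The genes and lists were chosen with earlier results of these data known. From each list the 2 most abundant tested genes in untreated resting cells at 0 h and the 2 with the smallest p in activated against resting cells were named, with Cd3e and Cd4 for T cells and the 3 nearest genes for likeness. Levels by replicate series, defining markers near 0, Rps19 and H2-Ob were named after their values were seen. Some results the rule would name are not reported here. Of 117 list genes, 109 had a row. Depth limits all statements on genes with few counts, and counting error is not the only error.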

Additional observations from a re-analysis of the deposited data

How the results depend on the processing

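The direction of each gene's change and its side of the threshold held in 1193 of the gene-by-alternative results, 58 gained and 20 lost a call, and 136 changed sign, most of them uncalled on both sides. The number of the 7 genes called moved as follows. The share of all genes called moved with the alternative too, and it is not given beside each count. Under DRB it was 39.8% in the main fit, 50.9% with the block within each state and 85.1% with that block per spike-in. A higher count is therefore no result about these genes. Activated against resting at 0 h untreated went from 0 to 1 (Igkc) with the replicate block within each cell state (−1.72 ± 0.18), with that block per spike-in and without a filter (1 each), and to 0 to 1 when a replicate was left out. At 0 h of triptolide it went from 0 to 1 with the block over all libraries, the block within each state (−1.77 ± 0.16), that block per spike-in and no filter, and to 0 to 1 without a replicate. At 3 h untreated it went from 0 to 2 with the block over all libraries, 3 with the block within each state (Igkc −2.07 ± 0.17), 3 with that block per spike-in, 2 without a filter, 1 with coding-sequence counts, 1 in DESeq2, and 0 to 1 without a replicate. In these 3 comparisons, in resting untreated, in activated triptolide and in the difference between states the numbers were not taken to pair the libraries. In the 3 comparisons of activated with resting cells the block within each state takes out the spread between the replicates of a state. That spread is what a difference between states is judged against, so the blocked SEs and calls there are no evidence of one. Every library correlated best with its own number in its own state, a hint from the data and not the design. The block changed no call in the difference between states or in activated untreated. Resting untreated went from 0 to 1 (Cd74) with the block within each state and with that block per spike-in. Activated triptolide went from 1 to 2 with the block over all libraries, 4 with the block within each state (Igkc 1.22 ± 0.17), 0 with library size alone, 0 with spike-in scaling, 5 with the block per spike-in, 3 without a filter, 2 with the libraries compared alone, and 0 to 2 without a replicate. DRB went from 1 to 2 with the block over all libraries, 3 with the block within each state, 3 with the block per spike-in, 3 without a filter, 2 with the libraries compared alone, and 0 to 2 without a replicate. Resting triptolide went from 1 to 2 with the block within each state, 0 with spike-in scaling, 3 with the block per spike-in and 2 without a filter. Cycloheximide added to triptolide in activated cells went from 0 to 1 with the block over all libraries, 2 with the block within each state and 1 without a filter. Cycloheximide added to DRB and cycloheximide alone in activated cells each went from 0 to 1 with the block within each state. Cycloheximide alone in resting cells went from 0 to 2 with that block, 1 with it per spike-in and 1 without a filter. Cycloheximide added to triptolide in resting cells went from 1 to 2 with the block within each state and without a filter. It went to 0 with harringtonine, RLE factors, library size alone, spike-in scaling, the block per spike-in, the libraries compared alone, DESeq2 and without any replicate (0 to 0). Most changes of sign came from spike-in scaling, where, with the block, the median of all genes was −1.73 in activated triptolide, −1.55 in DRB and −1.77 in resting triptolide. With the block within each state H2-Eb1 was called in activated triptolide (1.30 ± 0.55), and per spike-in Cd79b replaced Cd79a as the gene called under DRB (−2.46 ± 1.04). With coding-sequence counts the sign changed in activated against resting cells at 0 h with Cd79a 0.47 and Cd79b 0.87, activated against resting cells at 0 h of triptolide with H2-Aa 0.00 and H2-Eb1 0.30, resting untreated with Cd79a 0.21, Cd79b 0.13 and H2-Aa −0.05, activated triptolide with Cd79a −0.66, resting triptolide with H2-Eb1 0.07, cycloheximide added to triptolide in activated cells with Cd79a 0.26 and cycloheximide added to triptolide in resting cells with H2-Ab1 0.12. With the block over all libraries the sign changed in activated against resting cells at 0 h with Cd74 −0.12 and activated against resting cells at 3 h with H2-Eb1 −0.05. With the block within each state the sign changed in activated against resting cells at 0 h with Cd74 −0.06, resting untreated with H2-Aa −0.04, activated triptolide with Cd79a −0.06, the difference between states with Igkc −0.03 and cycloheximide added to DRB in activated cells with H2-Eb1 0.02. Without the 2 shallowest libraries it changed in activated against resting cells at 0 h with Cd74 −0.01 and activated untreated with H2-Aa −0.06. Per spike-in the changed signs were in activated against resting cells at 0 h of triptolide with Cd74 0.26 and activated against resting cells at 3 h with Cd79b 0.39. Further ones were in resting untreated with H2-Aa −0.24 and activated triptolide with Igkc −0.47, Cd79a −1.58, Cd74 −0.80, H2-Aa −0.79, H2-Ab1 −1.38 and H2-Eb1 −0.52. Next came activated DRB with Igkc −0.64, Cd74 −0.50, H2-Aa −0.89 and H2-Ab1 −0.62 and resting triptolide with Igkc −0.56, Cd79a −0.33, Cd79b −1.08, H2-Aa −1.37 and H2-Ab1 −0.74. Then came cycloheximide added to triptolide in activated cells with Cd79a 0.06, Cd74 0.07, H2-Ab1 0.20 and H2-Eb1 0.30 and cycloheximide added to DRB in activated cells with Cd74 0.12, H2-Ab1 0.16 and H2-Eb1 0.44. Others were in cycloheximide added to triptolide in resting cells with Cd79b 0.67, H2-Aa 0.35, H2-Ab1 0.32 and H2-Eb1 0.22 and cycloheximide alone in activated cells with Cd74 0.36. Further ones were in cycloheximide alone in resting cells with Igkc 0.14, Cd79b 0.65, Cd74 0.69, H2-Aa 0.31 and H2-Ab1 0.38. Per spike-in with the block, added after the data were seen, they were in activated against resting cells at 0 h of triptolide with Cd74 0.27 and activated against resting cells at 3 h with Cd79b 0.08. Next came activated untreated with Cd79b 0.22 and H2-Eb1 0.37 and resting untreated with H2-Aa −0.26. Then came activated triptolide with Igkc −0.52, Cd79a −1.92, Cd74 −0.79, H2-Aa −0.96, H2-Ab1 −1.77 and H2-Eb1 −0.59 and activated DRB with Igkc −0.72, Cd74 −0.52, H2-Aa −0.75 and H2-Ab1 −0.52. Others were in resting triptolide with Igkc −0.46, Cd79a −0.30, Cd79b −1.10, Cd74 −0.14, H2-Aa −1.42 and H2-Ab1 −0.66 and the difference between states with Igkc −0.07. Further ones were in cycloheximide added to triptolide in activated cells with Cd79a 0.14, Cd79b 0.15, Cd74 0.08, H2-Aa 0.17, H2-Ab1 0.32 and H2-Eb1 0.23 and cycloheximide added to DRB in activated cells with Cd74 0.19, H2-Ab1 0.06 and H2-Eb1 0.50. Next came cycloheximide added to triptolide in resting cells with Cd79b 0.66, H2-Aa 0.50, H2-Ab1 0.23 and H2-Eb1 0.43 and cycloheximide alone in activated cells with Cd74 0.34. Then came cycloheximide alone in resting cells with Igkc 0.17, Cd79b 0.74, Cd74 0.64, H2-Aa 0.28 and H2-Ab1 0.36. Without a filter it changed in activated untreated with H2-Aa −0.01. With RLE factors the sign changed in activated triptolide with Cd79a −0.05. With library size alone the sign changed in activated triptolide with Cd79a −0.19, resting triptolide with H2-Aa −0.15, cycloheximide added to DRB in activated cells with H2-Eb1 0.12 and cycloheximide added to triptolide in resting cells with Cd79b 0.12. With DESeq2 the sign changed in activated triptolide with Cd79a −0.07 and cycloheximide added to DRB in activated cells with H2-Eb1 0.07. With harringtonine in place of cycloheximide the sign changed in cycloheximide added to DRB in activated cells with H2-Aa −0.14 and cycloheximide added to triptolide in resting cells with H2-Eb1 0.66. With 1 replicate left out, changes of either sign came up in activated against resting cells at 0 h (−1.14 to 0.14 for Cd79a, −0.21 to 0.22 for Cd74, −0.01 to 1.79 for H2-Aa, −0.47 to 2.72 for H2-Ab1, −0.56 to 2.62 for H2-Eb1), activated against resting cells at 0 h of triptolide (−0.56 to 0.99 for H2-Aa, −0.25 to 1.63 for H2-Ab1, −2.05 to 0.12 for H2-Eb1) and activated against resting cells at 3 h (−0.68 to 1.06 for H2-Eb1). The same held in activated untreated (−0.41 to 0.49 for Cd79b, −0.24 to 0.35 for Cd74, −0.04 to 0.27 for H2-Aa, −0.49 to 0.51 for H2-Eb1), resting untreated (−0.45 to 0.34 for Igkc, −0.21 to 0.10 for H2-Aa, −1.17 to 0.36 for H2-Ab1) and activated triptolide (−0.85 to 0.90 for Cd79a, −0.19 to 0.58 for H2-Ab1). The same held in activated DRB (−0.48 to 0.21 for H2-Eb1), the difference between states (−0.07 to 0.42 for Igkc) and cycloheximide added to triptolide in activated cells (−3.18 to 0.79 for Cd79a, −1.85 to 0.13 for H2-Eb1). The same held in cycloheximide added to DRB in activated cells (−0.40 to 0.59 for H2-Aa, −0.20 to 0.85 for H2-Eb1), cycloheximide added to triptolide in resting cells (−0.39 to 0.10 for Cd79b) and cycloheximide alone in activated cells (−0.20 to 2.07 for Cd79a, −0.27 to 0.22 for Cd74). The same held in cycloheximide alone in resting cells (−1.25 to 0.41 for Cd79b, −2.88 to 0.23 for H2-Ab1). The medians of all genes in activated and resting triptolide moved to −0.27 and −0.31 with RLE factors and to −0.41 and −0.55 with library size alone. Other causes of these differences were not tested. Depth limits Cd79a, Cd79b, Ms4a1 and the class II chains, which had 188 to 1431 counts each over all libraries.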
